A study of Mus musculus with 4 samples.

Results

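The cells described here are early myeloid progenitors of the mouse bone marrow that carried transcripts of the first neutrophil granule proteases but little Elane, the gene of neutrophil elastase. They were chosen from their own transcript counts. A cell counted as eligible with at least 1000 unique molecular identifiers (UMIs, each standing for 1 captured transcript), at most 10% mitochondrial UMIs, and no other library holding the same barcode with at least 3 times its UMIs. Among eligible cells, members had at least 5 UMIs of Mpo, Ctsg and Prtn3 together per 10000 UMIs (the granule level), Elane under 5 per 10000, Prss34 and Mcpt8 together under 10 per 10000, and fewer than 2 UMIs of Csf1r. This gave 6952 early myeloid cells, 50.04% of the 13892 eligible cells and 27.5% of the 25242 deposited barcodes. Cells that met the same rule with Elane at 5 per 10000 or more are called Elane-high (1639 cells), and cells below 5 per 10000 for both the granule level and Elane are called granule-negative (5102 cells).

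The study asked how loss of Nup358, a protein of the cytoplasmic filaments of the nuclear pore encoded by Ranbp2, acts on multipotent progenitors. Live lineage-negative, Sca1-positive, cKit-positive (LSK) cells were sorted from adult mice and counted by their 3′ transcript ends in 4 droplet libraries, each from 3 pooled bone marrows. By the study's methods control mice (2 libraries) were Nup358 fl/fl, while the labels name them wild-type, and Nup358 KO mice (2 libraries) were Nup358 fl/fl with R26-CreERT2, a Cre recombinase expressed in all tissues and activated by tamoxifen. The study induced deletion in adult mice with tamoxifen on 3 consecutive days. Its control mice in the bone marrow experiments were Nup358 fl/fl animals also treated with tamoxifen, while the description of the sequencing itself does not repeat the treatment, and the labels do not state whether the control libraries carry the floxed allele. This Cre is not limited to blood cells, and effects of CreERT2 itself or of deletion in surrounding tissue cannot be told apart from those of deletion in the progenitors. Levels are given in CPM, a gene's UMIs scaled to the summed UMIs of the same cells, where 10000 CPM is 1% of all UMIs. The excised exon lies outside what a 3′ library counts, and the Ranbp2 level therefore checks nothing about the genotype. It was 132 and 102 CPM in early myeloid cells of control and 116 and 118 in Nup358 KO.

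Myeloperoxidase (Mpo), cathepsin G (Ctsg), proteinase 3 (Prtn3) and elastase (Elane) are stored in the primary granules of neutrophils, and their genes are switched on in progenitors, well before the cell looks like a granulocyte. Factors such as PU.1 (Spi1) and C/EBPα (Cebpa) drive this programme, Gfi1 and C/EBPε (Cebpe) carry it on towards the neutrophil, and IRF8 turns cells towards monocytes and dendritic cells. LSK cells hold stem cells and the multipotent progenitors from which these branches open, so that granule transcripts in them mark the beginning of the myeloid path.

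The 4 genes that defined the cells lie on mouse build GRCm38 at chr11:87793581-87804413 (Mpo), chr14:56099881-56102574 (Ctsg, minus strand), chr10:79874476-79883174 (Prtn3) and chr10:79886247-79888215 (Elane), so that Prtn3 and Elane are neighbours. Their promoters are shown because the first 3 genes set the early cells apart from granule-negative cells, and Elane sets them apart from Elane-high cells. Each run covers 250 bases before to 50 after the gene's start in RefSeq (GRCm38.p6), at chr11:87793534-87793833 (plus strand), chr14:56102525-56102824 (minus), chr10:79879417-79879716 (plus) and chr10:79886062-79886361 (plus), written 5′ to 3′ on the gene's strand. Capitals mark GAGGAA, a core of the sites that PU.1 and other ETS factors read, searched on both strands.
Mpo: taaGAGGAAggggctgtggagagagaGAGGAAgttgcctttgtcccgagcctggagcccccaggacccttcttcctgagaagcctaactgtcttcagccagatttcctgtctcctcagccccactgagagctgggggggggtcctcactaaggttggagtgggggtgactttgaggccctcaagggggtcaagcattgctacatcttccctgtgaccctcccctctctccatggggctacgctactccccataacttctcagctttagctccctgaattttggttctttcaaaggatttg
Ctsg: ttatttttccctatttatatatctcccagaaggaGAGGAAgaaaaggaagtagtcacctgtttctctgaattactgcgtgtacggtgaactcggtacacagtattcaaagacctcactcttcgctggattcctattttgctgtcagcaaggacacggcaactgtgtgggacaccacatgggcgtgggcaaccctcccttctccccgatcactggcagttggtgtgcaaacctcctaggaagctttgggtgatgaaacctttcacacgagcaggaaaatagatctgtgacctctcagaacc
Prtn3: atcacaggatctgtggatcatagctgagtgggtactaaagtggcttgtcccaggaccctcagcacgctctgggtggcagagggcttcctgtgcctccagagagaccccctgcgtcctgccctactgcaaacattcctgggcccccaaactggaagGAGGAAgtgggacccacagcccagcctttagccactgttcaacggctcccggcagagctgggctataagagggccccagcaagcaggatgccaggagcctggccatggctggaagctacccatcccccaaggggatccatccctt
Elane: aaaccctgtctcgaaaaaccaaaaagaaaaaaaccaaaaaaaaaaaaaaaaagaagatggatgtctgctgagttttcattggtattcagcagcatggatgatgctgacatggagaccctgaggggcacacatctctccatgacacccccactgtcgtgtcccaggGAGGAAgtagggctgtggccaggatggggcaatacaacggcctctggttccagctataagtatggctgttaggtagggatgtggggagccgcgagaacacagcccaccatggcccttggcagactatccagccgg
The letters GAGGAA are in all 4 windows and in 28.3% of 32851 promoters of the same length. The match begins 85 bases before the start of Elane and 95 before that of Prtn3, against 216 for Ctsg and 247 and 224 for the pair in Mpo. The C/EBP-type letters TTGCNNAA are in none of the 4 windows and in 10.8% of all. These matches describe sequence and were not measured as binding.

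Libraries differed in depth and in shared barcodes, and this bears on every count of cells. Of all deposited barcodes, 6680 sequences occurred in more than 1 library, and barcodes with a deeper copy elsewhere numbered 1369 and 5595 in control and 3161 and 811 in Nup358 KO. These copies were left out, the deepest copy of a sequence was kept, and no sequence was an early myeloid cell in more than 1 library, which the rule on copies makes likely. Early myeloid cells numbered 4723 and 494 in control and 700 and 1035 in Nup358 KO. Their median depth was 5772 and 14273.5 UMIs in control and 21956 and 18293 in Nup358 KO, so a Nup358 KO cell was read more deeply than a control cell. Summed over members, 31424346, 7779228, 18284630 and 21078384 UMIs stand behind the levels in the 4 libraries.

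The granule level of the members lay low and was spread widely. Its median was 22.8 and 15.3 UMIs per 10000 in control and 14.7 and 13.2 in Nup358 KO. Members at 50 per 10000 or more made up 20.4% and 10.9% in control and 9% and 6.57% in Nup358 KO. All 3 granule genes were seen in the same cell in 53.1% and 56.3% of control members and 75.6% and 76.8% of Nup358 KO members, with the deeper cells in Nup358 KO. At least 1 Elane UMI was found in 21.6% and 22.7% of control members and 26.7% and 20.5% of Nup358 KO members. In granule-negative cells, also chosen for low Elane, the shares were 3.49% and 3.24% in control and 0.599% and 0.933% in Nup358 KO. Background for Elane was not measured, so these shares are not read as shares of expressing cells.

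Just inside the granule threshold, from 5 to under 6 per 10000, lay 191 and 51 control and 63 and 91 Nup358 KO cells, and just outside it, from 4 to under 5, lay 224 and 54 control and 111 and 133 Nup358 KO cells. Near the Elane threshold the cells were few. From 4 to under 5 per 10000 there were 114 and 7 control and 6 and 4 Nup358 KO members, and from 5 to under 6 there were 75 and 11 control and 5 and 3 Nup358 KO cells on the Elane-high side. Cells on either side of the Elane threshold held a high granule level, with medians of 75.5 and 61.8 per 10000 inside it in control.

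As a measure of granule transcripts in cells that should lack them, B cells were counted. Among B cells, taken as cells with Cd79a and Cd79b at 20 per 10000 or more and no Kit UMI, 1 of 262 reached the granule threshold, a share of 0.382% (exact Clopper-Pearson 95% interval 0.00966 to 2.11%). Their median depth was 2020 to 3915 UMIs in the 4 libraries, below that of the members. The B cells numbered 6 and 4 among control and 85 and 167 among Nup358 KO eligible cells, so that almost all came from Nup358 KO. In control 0 of 6 and 0 of 4 reached the threshold, with upper limits of 45.9% and 60.2%, which sets no useful background for control. In Nup358 KO the shares were 1.18% (0.0298 to 6.38) and 0% (upper limit 2.18). Intervals here and below cover counting error only.

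The levels of the defining genes in the members are given as a description, since the rule used them. Mpo was at 1469 and 862 CPM in control and 804 and 787 in Nup358 KO. Prtn3 was at 1661 and 1176 CPM in control and 882 and 676 in Nup358 KO. Ctsg was at 537 and 444 CPM in control and 542 and 525 in Nup358 KO, so that the genotypes overlapped for Ctsg and not for Mpo or Prtn3. In the make-up of the granule UMIs, by contrast, the genotypes lay apart for Ctsg and Prtn3 and overlapped for Mpo. Ctsg gave 14.6% and 17.9% of them in control and 24.3% and 26.4% in Nup358 KO. Prtn3 gave 45.3% and 47.4% in control and 39.6% and 34.0% in Nup358 KO. Mpo gave 40.1% and 34.7% in control and 36.1% and 39.6% in Nup358 KO. Elane stood at 62.7 and 35.6 CPM in control and 34.7 and 24.95 in Nup358 KO. Mcpt8 overlapped, at 8.88 and 11.6 CPM in control and 10.1 and 14.8 in Nup358 KO. Csf1r did not overlap, at 7.57 and 4.76 CPM in control and 1.59 and 1.19 in Nup358 KO. The rule allowed fewer than 2 Csf1r UMIs per cell at any depth, while Nup358 KO members were read more deeply. The part of this limit in the levels of monocyte genes was not tested.

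Ccr2, the receptor for the monocyte chemoattractant CCL2 and the marker named beside the granule genes, divided the libraries by replicate number and not by genotype. It was at 113 CPM in control replicate 1 and 85.0 in Nup358 KO replicate 1, against 23.8 and 17.9 in the replicates numbered 2. In every library it was higher in early myeloid than in granule-negative cells, which held 24.5 and 9.97 CPM in control and 21.0 and 2.42 in Nup358 KO. The log2 fold change between genotypes in early myeloid cells was -0.37 ± 0.75 (SE), adjusted p = 0.781 by the quasi-likelihood test of edgeR with adjustment after Benjamini and Hochberg. Its sign turned without control replicate 1 (1.10) and without Nup358 KO replicate 2 (0.36), and it passed the threshold as lower without control replicate 2 (-1.05) and without Nup358 KO replicate 1 (-1.86).

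The share of early myeloid cells among eligible cells overlapped between the genotypes. It was 60.6% (95% interval 59.5 to 61.7) and 41.4% (38.6 to 44.3) in control and 44.6% (42.1 to 47.1) and 31.1% (29.5 to 32.7) in Nup358 KO. The means were 51.0% ± 13.6 and 37.8% ± 9.54 (SD, n = 2), a difference of -13.2 percentage points with an exact two-sided permutation p of 0.667. Against 2 libraries, 2 others cannot give a p below 0.333. The difference ran from -22.8 to -3.59 points when 1 library was left out, and was -3.59 without control replicate 1, -22.8 without control replicate 2, -19.9 without Nup358 KO replicate 1 and -6.43 without Nup358 KO replicate 2.

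The early cells made up a larger part of the granule-positive cells in Nup358 KO. Of early and Elane-high cells together, early cells were 76.0% (74.9 to 77.04) and 83.2% (79.9 to 86.1) in control and 96.3% (94.6 to 97.5) and 98.2% (97.2 to 98.9) in Nup358 KO. The Elane-high cells behind this numbered 1493 and 100 in control and 27 and 19 in Nup358 KO, which is 19.1% and 8.38% of eligible control cells and 1.72% and 0.570% of eligible Nup358 KO cells. The genotypes did not overlap, with means of 79.6% ± 5.08 and 97.2% ± 1.35 (SD, n = 2), a difference of 17.7 points and the smallest exact permutation p that the design allows, 0.333. With each cell thinned to 2000 UMIs the fractions were 71.0% and 81.1% in control and 92.8% and 95.5% in Nup358 KO, and with copied barcodes kept they were 75.9% and 85.0% in control and 88.2% and 92.0% in Nup358 KO. Cell number and depth differ between these libraries, and their part in the fraction was not tested.

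**Figure D1:**
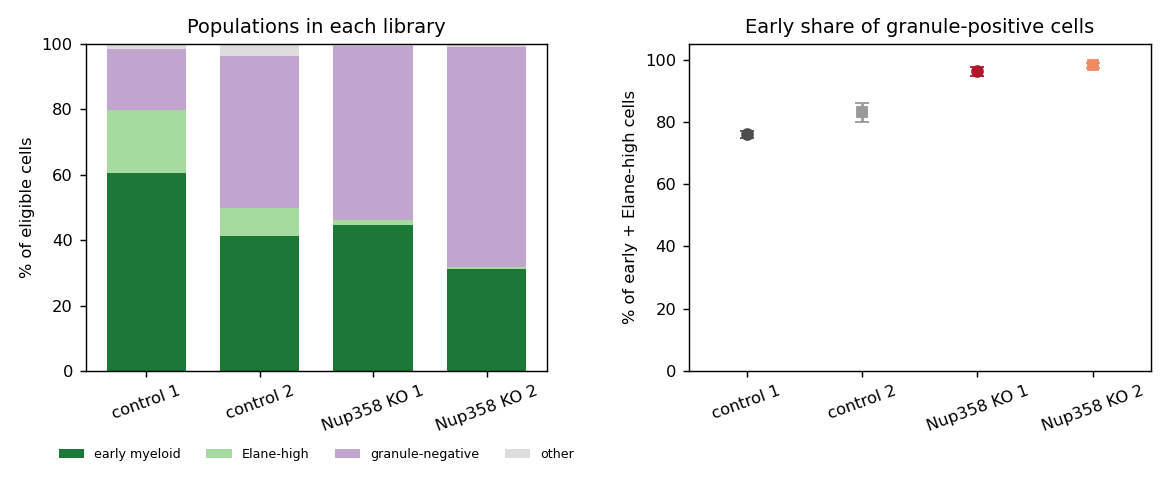
Left, stacked bars give the share of eligible cells (%) that were early myeloid, Elane-high, granule-negative or other in each library; right, points give early cells as a share (%) of early and Elane-high cells, with exact 95% intervals. The early share overlaps between the genotypes, while the early fraction is 76.0% and 83.2% in control and 96.3% and 98.2% in Nup358 KO.

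Elane was also read at like granule levels over early and Elane-high cells together, a view chosen after the data were seen and given with no test. From 20 to under 50 granule UMIs per 10000, Elane was at 58.6 and 46.5 CPM in control and 58.5 and 43.7 in Nup358 KO, so that the libraries overlapped. From 50 to under 100, Elane was at 550.3 and 400.4 CPM in control and 301 and 225 in Nup358 KO. At 100 and over, it was at 5662 and 6092 CPM in control and 1066 and 1604 in Nup358 KO, from 13 and 14 Nup358 KO cells. Within the range of 50 to under 100, Elane-high cells were 25.6% (23.0 to 28.3) and 32.9% (22.5 to 44.6) in control and 20.0% (11.6 to 30.8) and 11.3% (4.99 to 21.0) in Nup358 KO. The interval of Nup358 KO replicate 1 overlapped those of control, and that of Nup358 KO replicate 2 lay below both. The median granule level in the topmost range was 157 and 151 per 10000 in control and 118 and 120 in Nup358 KO. From 50 to under 100 it was 70.8 and 69.0 in control and 66.5 and 62.2 in Nup358 KO. In both ranges the levels were therefore alike only in part.

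**Figure D2:**
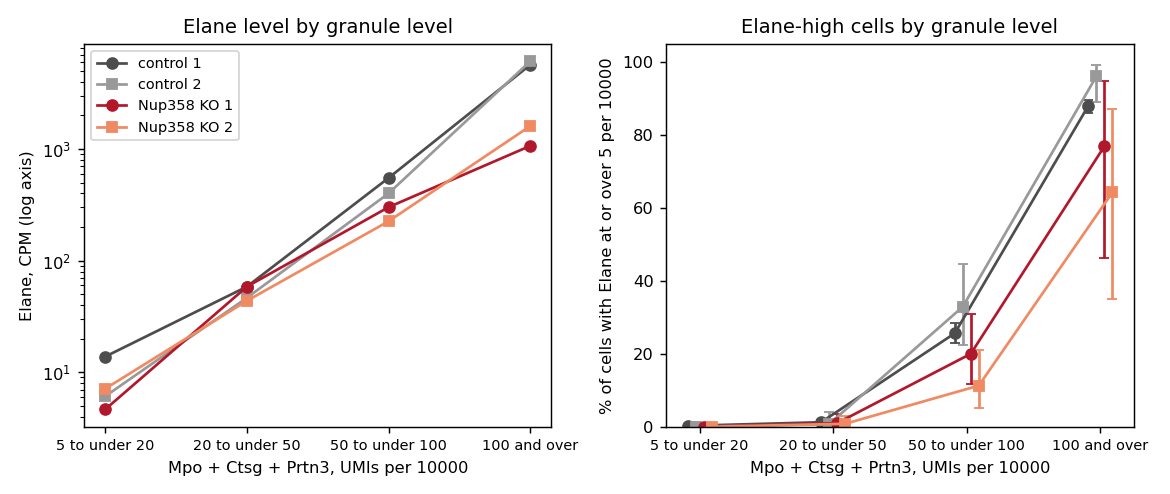
Elane in all granule-positive cells by granule level (Mpo, Ctsg and Prtn3 UMIs per 10000), for each library. Left, Elane CPM on a log axis; right, the share of cells (%) with Elane at or over 5 per 10000, with exact 95% intervals. The lines of the 4 libraries lie together at 20 to under 50 and part at 50 and over, where Nup358 KO is lower in CPM.

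Beside the granule genes, early myeloid cells carried a common set of genes in all 4 libraries, described here without a test because the populations were cut from the same counts. Against granule-negative cells, the log2 ratio (CPM + 5) was 2.37 ± 0.45 (SD over 4 libraries) for F13a1, the A chain of coagulation factor XIII. It was 2.33 ± 0.61 for Ms4a3, a gene of granulocyte and monocyte progenitors. Ccl9, a chemokine of myeloid cells, had a ratio of 1.99 ± 0.22, Rab44 of 1.89 ± 0.10, Anxa3 of 1.79 ± 0.45 and Hk3, a hexokinase, of 1.27 ± 0.10. Lower in early myeloid cells in all 4 libraries were genes of other lineages and some neutrophil genes. Of other lineages were Car1 of the erythroid line (-3.56 ± 0.64), Pf4 of megakaryocytes (-2.86 ± 1.05), and Cd79a (-2.71 ± 1.11) and Ebf1 (-1.98 ± 1.22) of B cells. The neutrophil genes S100a9 (-3.79 ± 2.47) and S100a8 (-3.69 ± 2.56) were lower too, with a wide spread. In granule-negative cells S100a8 was at 370 and 1902 CPM in control and 75.1 and 71.7 in Nup358 KO.

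Against Elane-high cells, the members had more of several genes of earlier stages and less of several of later ones. Dntt, the terminal transferase of lymphoid-primed progenitors, was higher by a log2 ratio of 3.12 ± 1.65, Hlf, a factor of stem cells, by 2.01 ± 0.49, and Mecom, another such factor, by 1.83 ± 0.57. Lower than in Elane-high cells were Cebpe (-3.49 ± 0.63), Ms4a3 (-3.43 ± 0.74), the haptoglobin gene Hp (-3.47 ± 0.83) and the Fc receptor gene Fcgr3 (-2.69 ± 0.66). S100a8 and S100a9, the calgranulins of neutrophils, were lower in all 4 libraries with a wide spread, -4.998 ± 2.56 and -4.83 ± 3.33. The sort markers were present in the members, with Kit at 106 and 108 CPM in control and 84.5 and 63.7 in Nup358 KO, and Ly6a (Sca1) at 149 and 154 in control and 214 and 114 in Nup358 KO.

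Genes also ran along the granule level inside the early population. From the range of 5 to under 10 per 10000 to that of 50 and over, Hlf went from 231 and 188 to 53.6 and 47.9 CPM in control and from 189 and 114 to 29.4 and 26.8 in Nup358 KO. Dntt went from 226 and 409 to 17.3 and 17.2 CPM in control and from 160.1 and 217 to 5.001 and 4.02 in Nup358 KO. These genes of early stages were lowest in the topmost range in every library. Cebpa went the other way, from 17.5 and 24.6 to 51.8 and 75.9 CPM in control and from 23.4 and 24.1 to 59.5 and 68.4 in Nup358 KO. Calr, a chaperone of the endoplasmic reticulum, went from 623 and 384 to 1488 and 1045 CPM in control and from 872 and 928 to 1864 and 1784 in Nup358 KO.

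Irf8 rose along the granule level mainly in control replicate 1, a description with no test. From the lowest to the topmost range its level went from 51.3 and 75.9 to 212 and 103 CPM in control, and from 30.4 and 39.7 to 37.8 and 40.9 in Nup358 KO, where Nup358 KO replicate 1 reached 62.4 from 20 to under 50. Ms4a3 was highest in the topmost range in every library, going from 23.1 and 5.18 to 275 and 246 CPM in control and from 19.3 and 15.9 to 508 and 453 in Nup358 KO. From 20 to under 50 it stood at 63.5 and 50.1 CPM in control and 148 and 99.2 in Nup358 KO, above control in both Nup358 KO libraries. Over all members Ms4a3 did not pass the test (log2 fold change 0.32 ± 0.28, adjusted p = 0.484), with 103 and 56.6 CPM in control and 116 and 76.9 in Nup358 KO.

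**Figure D3:**
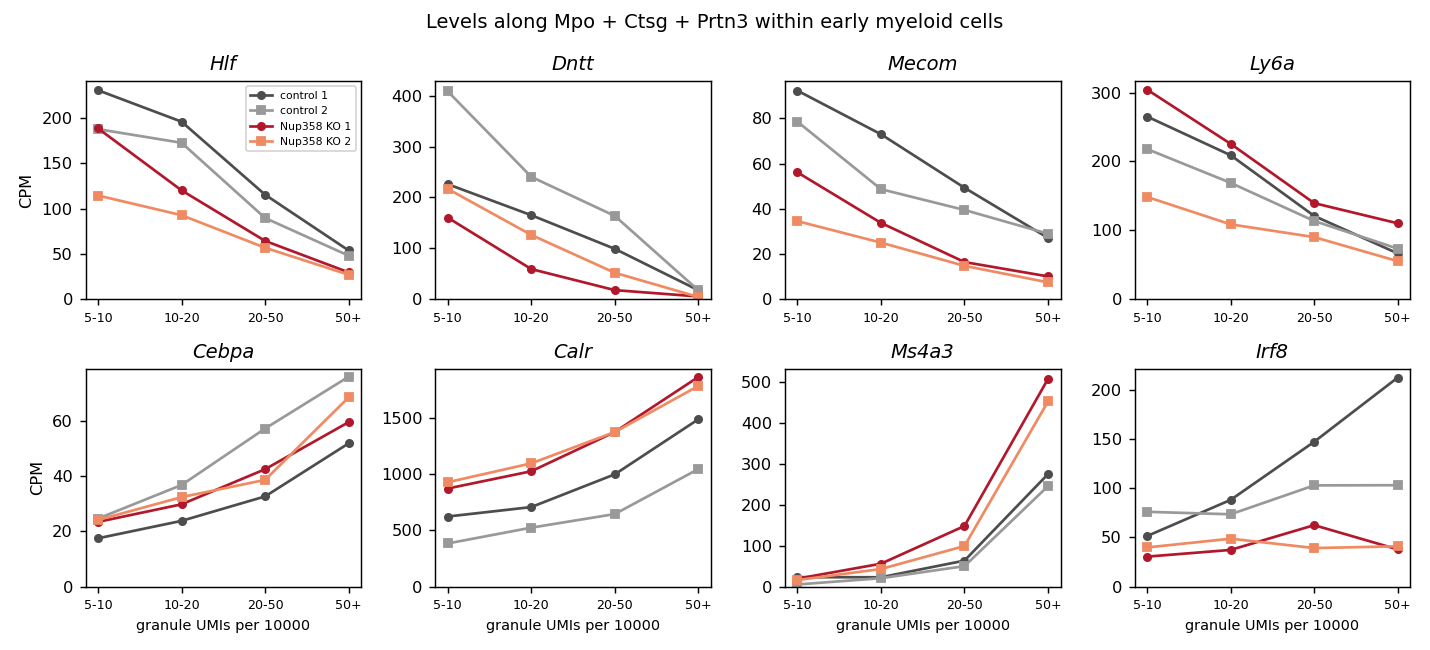
CPM of 8 genes within early myeloid cells of each library (y axis, starting at 0) in 4 ranges of the granule level (x axis, Mpo, Ctsg and Prtn3 UMIs per 10000). Hlf, Dntt, Mecom and Ly6a are lowest in the topmost range, Cebpa, Calr and Ms4a3 are highest there, and Irf8 reaches 212 and 103 CPM in control and 37.8 and 40.9 in Nup358 KO.

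To ask what differed between the genotypes inside the early population, the UMIs of its cells were added up for each library and compared by the quasi-likelihood test of edgeR, adjusted after Benjamini and Hochberg over 12531 genes. At an adjusted p under 0.05, 820 genes (6.54%) differed, 298 higher (2.38%) and 522 lower (4.17%) in Nup358 KO. The median log2 fold change over all genes was -0.0043. The libraries of the genotypes did not overlap in CPM for 57.0% of the genes tested, so a lack of overlap alone says little about a gene here. The count rested on the libraries, with 466 genes called without Nup358 KO replicate 1, 258 without Nup358 KO replicate 2, 3295 without control replicate 1 and 2812 without control replicate 2. Here and in every fit with a library left out, the lone library of a genotype is assumed to vary like the pair of the other, so these counts and the calls in them rest on the spread of 1 pair. In simulated counts for this comparison, 67.0% of genes changed by a log2 fold of 1 and 95.7% of those changed by 2 were found. The simulation gave genes of like level a common spread and held no single cells of outlying counts. These shares may therefore be too high for the real counts.

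The list with the highest share of calls was the immediate early genes, which code for transcription factors and regulators that cells switch on within minutes of a stimulus. Of 15 genes in this list, 14 passed the test lower in Nup358 KO, beside 4.17% of all genes, with a median log2 fold change of -1.62. Every one of the 15 had a negative fold change, from -2.66 to -0.87. The list was chosen with earlier results of these data known, so its count is no independent evidence.

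Fos, which with Jun forms the factor AP-1, was at 1218 and 1186 CPM in control and 239 and 347 in Nup358 KO (log2 fold change -1.98 ± 0.22, adjusted p = 0.00872, edgeR). Jun was at 828 and 618 CPM in control and 192 and 173 in Nup358 KO (-1.93 ± 0.18, adjusted p = 0.00710, edgeR). Egr1, a zinc finger factor, was at 289.6 and 329 CPM in control and 50.4 and 44.6 in Nup358 KO (-2.66 ± 0.17, adjusted p = 0.00371, edgeR). Both control libraries lay several times above both Nup358 KO libraries for these 3 genes. Atf3, a stress-induced factor, was at 33.4 and 25.6 CPM in control and 3.5002 and 6.36 in Nup358 KO, and the nuclear receptor gene Nr4a1 at 39.7 and 74.2 in control and 11.4 and 8.78 in Nup358 KO, and both fell. Btg2, Klf2, Klf6, Jund, Fosb, Zfp36, Ier2, Dusp1 and Ier3 passed as well, Ier3 just inside the threshold (adjusted p = 0.0497, edgeR). Junb stood at 244 and 482 CPM in control and 127 and 167 in Nup358 KO and did not pass (-1.26 ± 0.33, adjusted p = 0.0605, edgeR).

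The 14 calls remained when eligible cells were thinned to equal depth and members were chosen anew. For Egr1 the difference was seen within each range of the granule level. When each member was thinned to 2000 UMIs, a Fos UMI was found in 75.6% and 74.7% of control members and 30.2% and 41.6% of Nup358 KO members, and an Egr1 UMI in 39.4% and 44.3% of control and 6.94% and 8.33% of Nup358 KO members. Without thinning these shares were 90.6% and 92.7% against 70.3% and 78.9% for Fos, and 62.0% and 75.9% against 43.3% and 39.4% for Egr1. Thinning left out 137 and 0 control and 8 and 3 Nup358 KO members. In each of the 4 ranges of the granule level Egr1 was higher in both control libraries, with 414 and 412 CPM in control and 62.3 and 54.7 in Nup358 KO at 5 to under 10, and 173 and 140.003 in control and 41.7 and 15.4 in Nup358 KO at 50 and over. All 14 genes were still called after thinning to 2000 UMIs and 13 without Nup358 KO replicate 2 (Fosb was not), and 11 were called without Nup358 KO replicate 1 (Dusp1, Ier2 and Ier3 were not).

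The immediate early genes were also lower outside the early population, and no difference of the effect from granule-negative cells passed the test for any of the 15. In granule-negative cells Egr1 was at 413 and 489 CPM in control and 73.3 and 77.3 in Nup358 KO. The Nup358 KO effect in early minus that in granule-negative cells was -0.12 ± 0.09 on the log2 scale for Egr1 (adjusted p = 0.726, edgeR interaction test) and -0.29 ± 0.09 for Fos (adjusted p = 0.302). Over all genes, 30 of 12989 (0.231%) passed this interaction test.

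**Figure D4:**
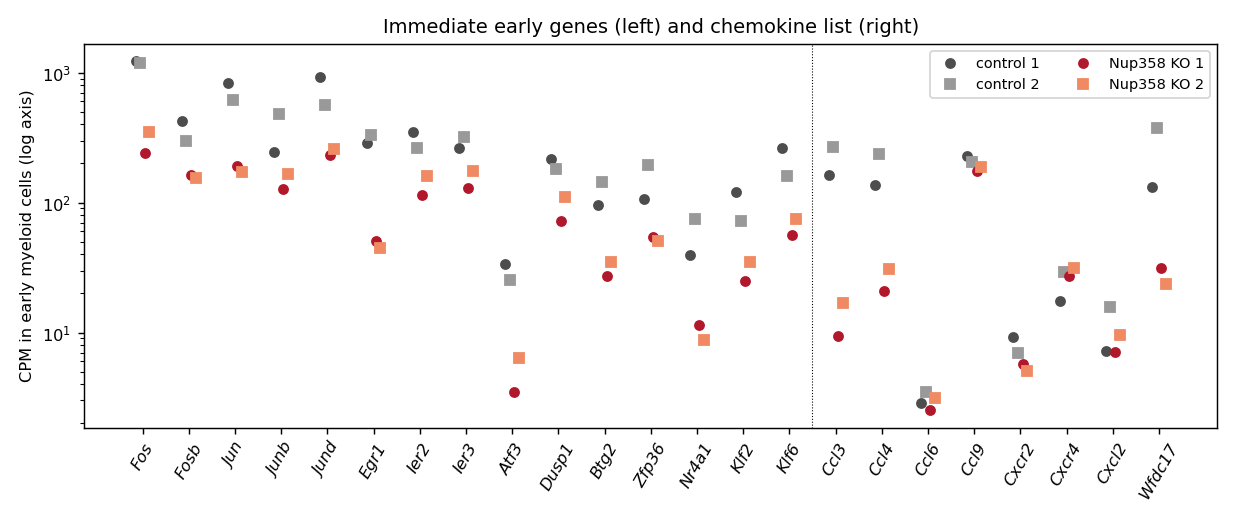
CPM in early myeloid cells (log axis) of the immediate early genes (left of the dotted line) and the chemokine list (right), 1 point per library. For every immediate early gene the 2 Nup358 KO points lie below the 2 control points, as they do for Ccl3, Ccl4 and Wfdc17.

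The promoters of Fos (chr12:85473640-85473939, plus strand) and Atf3 (chr1:191183284-191183583, minus strand) are shown for the TGACGT letters that CREB and ATF factors read, marked in capitals, with the same source and window as above and searched on both strands.
Fos: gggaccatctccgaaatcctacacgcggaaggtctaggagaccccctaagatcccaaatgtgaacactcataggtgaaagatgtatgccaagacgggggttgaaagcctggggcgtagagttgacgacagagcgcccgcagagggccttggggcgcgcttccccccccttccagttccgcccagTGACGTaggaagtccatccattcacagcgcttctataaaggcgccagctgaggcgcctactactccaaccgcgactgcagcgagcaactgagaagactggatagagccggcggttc
Atf3: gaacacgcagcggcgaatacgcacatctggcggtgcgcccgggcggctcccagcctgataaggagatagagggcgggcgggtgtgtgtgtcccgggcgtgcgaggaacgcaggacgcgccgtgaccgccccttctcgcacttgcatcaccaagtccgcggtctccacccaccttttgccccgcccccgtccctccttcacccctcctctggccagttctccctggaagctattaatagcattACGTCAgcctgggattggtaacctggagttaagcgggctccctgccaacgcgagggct
RefSeq windows were found for 13 of the 15 immediate early genes, and TGACGT is in 4 of them and in 7.51% of all promoters. The match begins 66 bases before the start of Fos and 8 before that of Atf3. Nothing was measured at these sites.

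Among the 10 largest falls were 3 genes of the chemokine list. Ccl3, an inflammatory chemokine on chr11:83647844-83649355, was at 163 and 269.8 CPM in control and 9.35 and 16.8 in Nup358 KO (log2 fold change -4.00 ± 0.37, adjusted p = 0.00710, edgeR). Its neighbour in function Ccl4 was at 137 and 235 CPM in control and 20.9 and 31.0 in Nup358 KO (-2.79 ± 0.32, adjusted p = 0.00880). Wfdc17, a small secreted inhibitor-like protein, was at 132 and 374 CPM in control and 31.2 and 23.6 in Nup358 KO. These were 3 of 8 genes of the list, beside 4.17% of all genes called lower. The other 5, Ccl6, Ccl9, Cxcr2, Cxcr4 and Cxcl2, did not pass, and the median of the list was -0.45. After thinning to 2000 UMIs a Ccl3 UMI was found in 22.4% and 31.4% of control members and in 2.17% and 3.88% of Nup358 KO members.

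Among 13 tested myeloid transcription factors, 2 passed, both lower, beside 4.17% of all genes. Irf8 on chr8:120736358-120756694, the factor of the monocyte and dendritic branch, was at 136 and 86.9 CPM in control and 42.7 and 42.7 in Nup358 KO (log2 fold change -1.33 ± 0.20, adjusted p = 0.0191, edgeR). Zeb2, a repressor needed in that branch, was at 207 and 145 CPM in control and 108 and 93.1 in Nup358 KO (-0.76 ± 0.18, adjusted p = 0.0497). Irf8 passed without either Nup358 KO library, while Zeb2 did not, nor did Zeb2 pass after thinning to 2000 UMIs or among members under 20 per 10000. The factors of the granule programme did not pass: Cebpa stood at 33.3 and 44.6 CPM in control and 34.4 and 33.6 in Nup358 KO, Gfi1 at 10.5 and 12.98 in control and 11.9 and 13.1 in Nup358 KO, and Spi1 at 234 and 205 in control and 149 and 167 in Nup358 KO.

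For Irf8 the effect itself differed from that in granule-negative cells. There its level was 50.8 and 38.1 CPM in control and 80.9 and 51.6 in Nup358 KO, so that the direction was opposite. In the same granule-negative cells Siglech, a marker of plasmacytoid dendritic cells, was at 1.24 and 0 CPM in control and 16.4 and 7.84 in Nup358 KO, and Cd79a at 10.8 and 14.51 in control and 94.7 and 142 in Nup358 KO. Cells of these types are known to express Irf8, and their part in the result was not tested. The difference of the effects was -1.90 ± 0.17 on the log2 scale (adjusted p = 0.00146, edgeR interaction test). Early myeloid cells had more Irf8 than granule-negative cells in control, and less in Nup358 KO.

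Of 13 myeloid receptors tested, 3 passed as lower, beside 4.17% of all genes, and the median of the list was -0.54. Clec12a, an inhibitory lectin of myeloid cells, was at 81.1 and 62.6 CPM in control and 35.7 and 37.3 in Nup358 KO (log2 fold change -0.93 ± 0.15, adjusted p = 0.0239, edgeR). Csf2ra, the α chain of the GM-CSF receptor, was at 36.3 and 31.6 CPM in control and 18.7 and 19.7 in Nup358 KO, and Il6ra, the receptor of interleukin 6, at 30.4 and 27.6 in control and 17.0 and 14.2 in Nup358 KO. None of the 3 passed without Nup358 KO replicate 1, and none without Nup358 KO replicate 2. Clec12a also did not pass among members under 20 per 10000, nor Il6ra after thinning to 2000 UMIs.

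Of 15 genes of monocytes and dendritic cells, 3 were lower and 1 higher, beside 4.17% and 2.38% of all genes. Tyrobp, an adaptor of activating receptors, was at 161 and 133 CPM in control and 66.9 and 66.4 in Nup358 KO (log2 fold change -1.09 ± 0.14, adjusted p = 0.0145, edgeR). Fcer1g, a related adaptor, was at 99.2 and 104.6 CPM in control and 52.1 and 52.0 in Nup358 KO. Mpeg1, a pore-forming protein of macrophages, was at 11.6 and 10.0 in control and 5.20 and 3.99 in Nup358 KO. The part of the rule's limit on Csf1r in these falls, and in those of Irf8 and Clec12a, was not tested. Cd74, the chaperone of class II antigen presentation, was the gene that rose, from 33.0 and 24.4 to 55.6 and 47.1 CPM. In control replicate 2 most of the 190 Cd74 UMIs came from 1 cell. The B cell gene Cd79a was at 0.286 and 0 CPM in control and 3.77 and 5.50 in Nup358 KO members, and the part of such cells in the Cd74 result was not tested. Cd74 did not pass among members under 20 per 10000 (log2 fold change 0.28), and leaving out Nup358 KO replicate 1 ended the calls of Cd74 and Fcer1g, leaving out replicate 2 those of Fcer1g and Mpeg1, and thinning to 2000 UMIs those of Cd74 and Mpeg1.

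Of the other primary granule genes, 1 of 11 tested passed, and it was lower, as were 4.17% of all genes. Hp, haptoglobin, was at 43.2 and 25.3 CPM in control and 8.04 and 4.03 in Nup358 KO (log2 fold change -2.48 ± 0.34, adjusted p = 0.0149, edgeR). The others lay between -0.65 and 0.57, with a list median of -0.12. Among them were Nkg7 at 205 and 158 CPM in control and 225 and 294 in Nup358 KO, and Plac8 at 1124 and 1669 in control and 1378 and 1055 in Nup358 KO. Of 10 late granule genes tested, Lcn2, lipocalin 2, was the 1 that passed, at 25.7 and 12.1 CPM in control and 5.03 and 3.37 in Nup358 KO (-2.16 ± 0.34, adjusted p = 0.0214). In control replicate 1, 174 of 809 Lcn2 UMIs came from 1 cell, and after thinning to 2000 UMIs the shares of cells with a Lcn2 UMI overlapped, at 2.49% and 1.21% in control and 1.30% and 0.678% in Nup358 KO. In granule-negative cells Lcn2 was at 76.9 and 188.5 CPM in control and 3.58 and 15.4 in Nup358 KO. The other 9 did not pass, among them Camp with 20.3 and 1.54 CPM in control and 5.58 and 0.0949 in Nup358 KO.

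Stem cell genes were present in the members, and the 16 genes of their list had a median log2 fold change of -0.26. Mecom, a factor of stem cells, was at 55.5 and 52.1 CPM in control and 33.6 and 24.4 in Nup358 KO and fell (-0.84 ± 0.18, adjusted p = 0.0379, edgeR). Hlf, at 135 and 135 CPM in control and 117 and 86.3 in Nup358 KO, did not pass. Without Nup358 KO replicate 2 the call of Mecom was lost, as it was after thinning to 2000 UMIs.

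Genes of protein folding and export, which granule proteins pass through, had 1 of 17 members called higher, beside 2.38% of all genes. Hyou1, a chaperone of the endoplasmic reticulum, was at 25.5 and 23.3 CPM in control and 42.1 and 39.9 in Nup358 KO (log2 fold change 0.80 ± 0.14, adjusted p = 0.0265, edgeR), a call that was lost without either Nup358 KO library and after thinning to 2000 UMIs. Of the 17 genes 16 had a positive fold change, with a median of 0.30, and Calr was at 1002 and 591 CPM in control and 1163 and 1157 in Nup358 KO (0.60 ± 0.24, adjusted p = 0.146). None of 20 genes of the G1/S phases and none of 20 of the G2/M phases passed, with medians of 0.24 and 0.38. The fold change was positive for 14 of the G1/S and 19 of the G2/M genes. The summed G2/M list stood at 2416 and 1461 CPM in control and 2277 and 2562 in Nup358 KO, so that the libraries overlapped. With edgeR at an unadjusted p under 0.05, 3471 of all 12531 genes would pass.

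Among 12 targets of p53, 2 were higher, beside 2.38% of all genes. Pmaip1, which codes for the pro-apoptotic NOXA, was at 2.55 and 3.34 CPM in control and 8.42 and 10.7 in Nup358 KO (log2 fold change 1.83 ± 0.26, adjusted p = 0.0161, edgeR), and Phlda3, an inhibitor of AKT, at 5.92 and 4.76 in control and 12.0 and 16.7 in Nup358 KO (1.46 ± 0.23, adjusted p = 0.0213). The other 10 did not pass, and the fold changes of the list ran from -0.99 to 1.83. Of 9 genes of the HDAC3 corepressor complex, class I deacetylases and Ranbp2, Tbl1xr1 was the 1 that rose, beside 2.38% of all genes, from 58.0 and 44.2 to 77.2 and 82.5 CPM (0.69 ± 0.16, adjusted p = 0.0455). Hdac3 was at 36.3 and 38.2 CPM in control and 44.1 and 39.6 in Nup358 KO (0.22 ± 0.15, adjusted p = 0.364). Of 11 interferon-related genes, Ifitm1 was lower, beside 4.17% of all genes, at 1619 and 1934 CPM in control and 872 and 881 in Nup358 KO (-0.97 ± 0.19, adjusted p = 0.0333). The calls of Tbl1xr1 and Ifitm1 were lost without either Nup358 KO library, and those of Pmaip1 and Tbl1xr1 after thinning to 2000 UMIs.

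**Figure D5:**
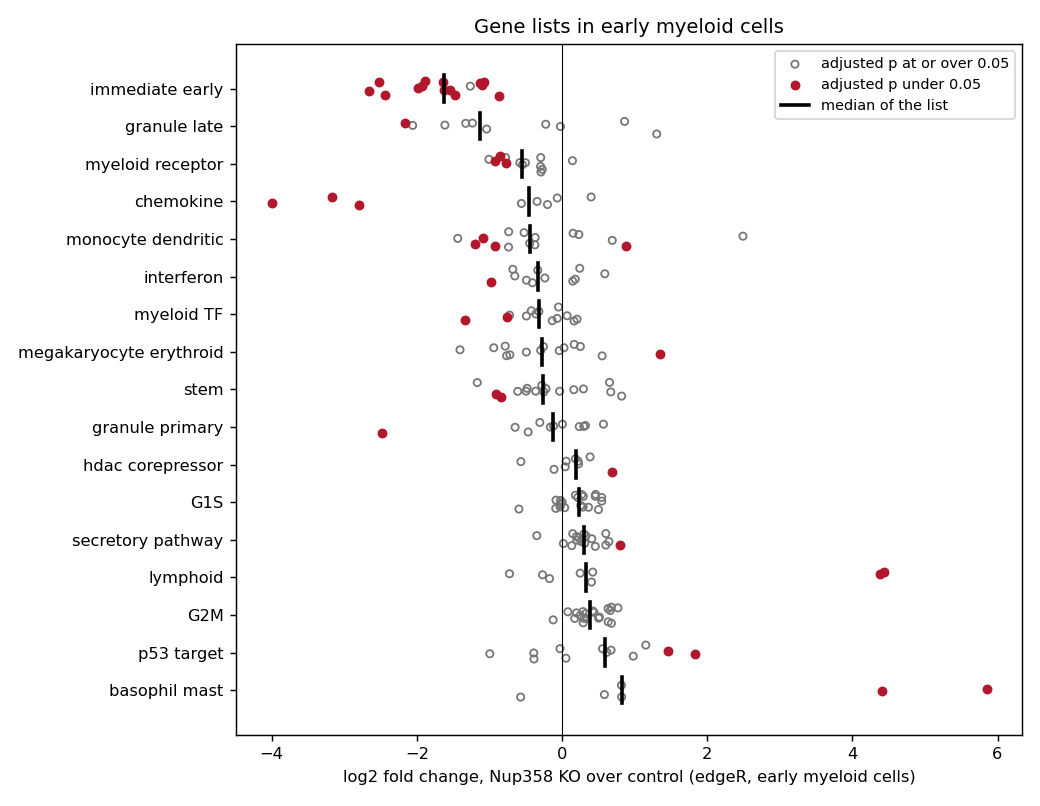
Log2 fold change of Nup358 KO over control (edgeR) for each gene of 17 lists in early myeloid cells; filled points passed an adjusted p under 0.05, open ones did not, and bars give the median of each list. The immediate early genes have the lowest median, -1.62, with 14 of 15 past the threshold, while single genes of the chemokine list lie lower.

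Markers of other lineages ranged from near 0 to levels above that of Kit in the members. Car2, a carbonic anhydrase of the erythroid line, was at 148 and 184 CPM in control and 143 and 126 in Nup358 KO, and Dntt at 112 and 236 in control and 74.8 and 129.7 in Nup358 KO. B cell genes were far lower. Cd79a was at 0.286 and 0 CPM in control and 3.77 and 5.50 in Nup358 KO, and Ebf1 at 0.0318 and 0.257 in control and 0.820 and 2.51 in Nup358 KO. These were 2 of 8 tested lymphoid genes called higher, beside 2.38% of all genes, and Ebf1 did not pass without Nup358 KO replicate 2 or with copied barcodes kept. They moved with the B cells of the libraries, 6 and 4 against 85 and 167, while the part of these cells in the result was not tested. Cd79a UMIs were found in 5 and 0 control and 39 and 46 Nup358 KO members. Of the Ebf1 UMIs, 7 of 15 in Nup358 KO replicate 1 and 29 of 53 in replicate 2 came from a single cell each. The summed lymphoid list was at 245 and 382 CPM in control and 199 and 279 in Nup358 KO, with Dntt its most abundant gene.

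Of 6 tested genes of basophils and mast cells, Cma1, a mast cell chymase, and Gzmb, granzyme B, were higher, beside 2.38% of all genes, but on very few cells. Cma1 UMIs came from 1 and 0 control and 2 and 2 Nup358 KO members, with 111 of 112 UMIs in Nup358 KO replicate 1 in a single cell. Gzmb UMIs came from 1 and 0 control and 7 and 4 Nup358 KO members. The summed list was at 26.8 and 35.9 CPM in control and 56.4 and 51.8 in Nup358 KO, with Cpa3 its most abundant gene and Tpsab1 at 0. Of 14 megakaryocyte and erythroid genes, Hbb-bt, a β-globin, was higher (48.7 and 77.8 CPM in control and 125 and 184 in Nup358 KO, log2 fold change 1.34 ± 0.28, adjusted p = 0.0387), again beside 2.38% of all genes. Hbb-bt did not pass without Nup358 KO replicate 2 or at a granule threshold of 10 per 10000. That list summed to 644 and 499 CPM in control and 507 and 518 in Nup358 KO. The red cell list was at 2.26 and 1.93 CPM in control and 1.53 and 1.14 in Nup358 KO, the T and NK cell list at 0.700 and 3.34 in control and 1.42 and 8.63 in Nup358 KO, and of each 1 gene could be tested and did not pass.

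Among called genes of at least 10 CPM on average whose libraries did not overlap, the 10 largest rises lay mostly outside these lists. Ccnd1, cyclin D1, on chr7:144929931-144939925, was at 12.7 and 12.9 CPM in control and 42.2 and 48.4 in Nup358 KO (log2 fold change 1.88 ± 0.16, adjusted p = 0.00686, edgeR). Ddx39, an RNA helicase of mRNA export, was at 128 and 104.5 CPM in control and 279.7 and 301 in Nup358 KO (1.37 ± 0.15, adjusted p = 0.00855). Both were more than 2 times as high in each Nup358 KO library as in each control library. Mt1, a metallothionein, was at 49.5 and 44.9 CPM in control and 116 and 112 in Nup358 KO, Id1, an inhibitor of bHLH factors, at 30.3 and 34.7 in control and 66.0 and 85.6 in Nup358 KO, and Slc7a5, a transporter of large amino acids, at 4.58 and 6.68 in control and 12.5 and 16.8 in Nup358 KO. The uncharacterised 4930519L02Rik (log2 fold change 1.71), Afp, the gene of α-fetoprotein (1.62), Grb10 (1.32) and Fam84b (1.27) completed the 10 highest rises with Hbb-bt.

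Of the 10 largest falls, 7 belonged to the lists above (Ccl3, Wfdc17, Ccl4, Egr1, Atf3, Hp and Nr4a1). The other 3 were Greb1, Gm19590 and Rgs1. Rgs1, a brake on G protein signals, was at 258 and 340.3 CPM in control and 66.5 and 60.3 in Nup358 KO (log2 fold change -2.19 ± 0.20, adjusted p = 0.00710, edgeR). Greb1, known as an oestrogen-responsive gene, was at 27.7 and 40.4 CPM in control and 4.10 and 3.94 in Nup358 KO (-3.02 ± 0.25, adjusted p = 0.00658), and Gm19590 at 19.2 and 37.4 in control and 5.85 and 4.08 in Nup358 KO.

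The Nup358 KO effect in early myeloid cells was also set against that in Elane-high cells. Here 330 of 12358 genes (2.67%) passed the interaction test, on 27 and 19 Nup358 KO Elane-high cells and with a fit that gave all genes a common spread, so that its p-values are likely too small. Fos is an example, at 599 and 449 CPM in control and 226 and 318 in Nup358 KO Elane-high cells, so that the fall was larger in early cells by 1.03 ± 0.12 on the log2 scale (interaction -1.03, adjusted p = 6.1e-14, edgeR). Ly6c2, a surface marker of monocytes and granulocyte progenitors, was at 14.6 and 3.34 CPM in control and 9.74 and 4.13 in Nup358 KO early cells, against 562 and 686 in control and 54.6 and 16.6 in Nup358 KO Elane-high cells. The count fell to 99 after thinning to 2000 UMIs and to 51 without control replicate 2, 185 without control replicate 1 and 167 without Nup358 KO replicate 1.

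Without control replicate 2 the count of genes whose effect differed from granule-negative cells went from 30 to 585. Ms4a3 was among the 30, at 22.8 and 13.8 CPM in control and 9.91 and 8.09 in Nup358 KO granule-negative cells. The effect on Ms4a3 was higher in early cells by 1.26 ± 0.14 on the log2 scale (adjusted p = 0.00467, edgeR interaction test). Within early cells Ms4a3 did not pass between the genotypes. The neutrophil gene S100a8 was at 370 and 1902 CPM in control and 75.1 and 71.7 in Nup358 KO granule-negative cells. The part of such cells in the Ms4a3 result was not tested. Mt1 was another of the 30, with an effect higher by 1.41 ± 0.19 in early cells (adjusted p = 0.0139, same test). Cd52, a small surface glycoprotein of leukocytes, was at 167 and 180.5 CPM in control and 85.5 and 68.6 in Nup358 KO early cells, against 151 and 209 in control and 221 and 158 in Nup358 KO granule-negative cells. The effect on Cd52 was lower in early cells by 1.25 ± 0.11 on the log2 scale (interaction -1.25, adjusted p = 0.00146).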

How the data were processed

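Control and Nup358 KO LSK libraries (2 each) were made with the Chromium 3′ kit v3.1. The authors mapped the reads on GRCm38 and made UMI counts with Cell Ranger (version 3.1 per the submitters' processing notes), and deposited unnormalised counts of 27998 genes per barcode. The deposited barcodes held 60330267 and 25111828 UMIs in control and 35986936 and 54850344 in Nup358 KO. Doublets were neither called nor removed. Labels do not say more than that libraries are separate replicates. The edgeR p-values set the difference between genotypes against a spread between these libraries that was estimated in part across genes.

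Members were chosen as stated, and counts summed per library. CPM were not scaled to gene length. Sums were tested with edgeR 4.0.16 in R 4.3.3 (quasi-likelihood, trimmed mean of M-values, filterByExpr, Benjamini-Hochberg at 0.05), without replicate block, and the 7 rule genes stayed in the fit but are only described. Interactions had library as a block. The fit for Elane-high cells had infinite prior degrees of freedom. On simulated data, with a spread set by the level of a gene alone, 5.99% of the calls in early cells were false. The real share may differ. Alternatives were other thresholds, DESeq2 1.42.0, RLE scaling, thinning of eligible cells before the rule was applied, and left-out libraries. Genes named are the rule genes and Ccr2, members of the 19 lists, the 10 highest rises and 10 largest falls among called genes without overlap and at least 10 CPM on average, the 5 smallest p of each interaction, and the 15 genes with the largest ratios between populations, of which some are printed. Positions are from GENCODE M21, promoters from RefSeq. Members, lists and tests were chosen with earlier results of these data known. Cebpd and Trbc2 were not analysed here, and a gene of the lists that is withheld is not reported here.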

Additional observations from a re-analysis of the deposited data

Results flagged for a closer look

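A difference of the Nup358 KO effect between populations was found by interaction test (edgeR) in 330 genes for Elane-high cells and in 30 for granule-negative cells. The 5 genes with the smallest p against Elane-high cells had interactions, early minus Elane-high on the log2 scale, of -3.94 for S100a9, -2.59 for S100a8, 3.60 for Ly6c2, -3.37 for Camp and -2.71 for Lcn2. They rest on 27 and 19 Nup358 KO cells, and Elane-high libraries of 1 genotype lay far apart: S100a9 was at 62.6 and 855 CPM in control and 410.1 and 4013 in Nup358 KO.

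The 5 with the smallest p against granule-negative cells had interactions of -1.25 for Cd52, -1.39 for Cd79b, -1.90 for Irf8, -3.01 for Vpreb1 and 7.24 for Hbb-bs. Cd79b and Vpreb1 belong to B cell precursors, and Vpreb1 was at 7.75 and 7.62 CPM in control and 22.1 and 138 in Nup358 KO granule-negative cells. Hbb-bs, a globin of red cells, was at 666 and 2587 CPM in control and 4.47 and 6.74 in Nup358 KO granule-negative cells, against 0.996 to 1.53 in early cells of the 4 libraries.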

How the results depend on the processing

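The shares kept their direction under every alternative run, with leave-one-out differences of -22.8 to -3.59 points for the early share and 14.1 to 21.3 for the early fraction. With copied barcodes kept, the early share no longer overlapped between the genotypes. Counts of genes depended on the setting. Higher genes, 298 as reported, were 529 with copied barcodes kept, 83 thinned to 2000 UMIs, 971 without a filter on low counts, 452 with DESeq2, 448 among members under 20 per 10000, and 83 to 1687 with 1 library left out. Lower genes, 522 as reported, were 809, 253 and 1330 under the same copied, thinned and unfiltered settings, and 175 to 1608 with 1 library left out. The interaction with Elane-high cells, 330 genes, gave 173 with Elane under 10 per 10000, 167 without high-UMI cells, 99 thinned, 805 unfiltered, and 51 to 241 with 1 library left out. That with granule-negative cells, 30 genes, gave 132 at a granule threshold of 10, 16 at a minimum of 2000 UMIs, 16 without high-UMI cells, 13 with copied barcodes kept, 104 thinned, and 27 to 585 with 1 library left out. The cause of these shifts was not tested.

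Like replicate numbers did not deviate together (r = -0.19 over 7829 genes, across genes). With the replicate block 306 genes were higher and 563 lower. With the numbers crossed, an alternative chosen after seeing the data, 467 were higher and 608 lower. The sign turned for 3 named genes that did not pass the test over all members. Ccr2 was 0.061 among members under 20 per 10000 and ran from -1.86 to 1.10 with 1 library left out. Ranbp2 was -0.011 at a granule threshold of 10 and ran from -0.087 to 0.19 with 1 library left out. Ms4a3 was -0.0021 with Elane under 10 per 10000 and ran from -0.0048 to 0.77 with 1 library left out, passing the threshold without control replicate 1 and among members under 20 per 10000 (0.88). Over 57 named genes and all settings, 962 values were compared, of which 889 kept direction and side of the threshold, 49 lost a call, 17 gained one and 7 turned sign.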
